A study of Rattus norvegicus with 30 samples.

Results

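Adrenal glands of ovariectomized (OVX) female rats were compared with those of sham-operated control females. The comparison takes every array that the labels describe as a female control or as female gonadectomy without hormone, 10 of the 30 arrays of the series, 5 in each group. All 10 arrays held RNA from whole adrenals of adult Wistar rats, given as 12 week old, with no genetic change named in the labels. OVX rats lost both ovaries through 2 dorsolateral cuts and were killed 4 weeks later without any hormone. Control females had a sham operation and kept their ovaries. Their stage of the estrous cycle is not given in the sources used here, and neither is the circulating estradiol of single animals. The rats lived under 14 h of light and 10 h of dark with lights on at 6, and experiments were run between 10 and 11 in the morning. The remaining groups were OVX rats given estradiol (OVX + E, 0.5 mg per 100 g body weight on day 14 after surgery), control males, orchiectomized males (ORX) and ORX males given testosterone.

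The adrenal cortex makes corticosteroids from cholesterol, which its cells take up or synthesize and store as esters in lipid droplets. Pituitary ACTH drives this process through cyclic AMP, and the gland also runs its own circadian clock. Ovarian estradiol acts through nuclear receptors and also influences the output of the pituitary hormones that reach the adrenal.

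Expression was read as log2 signal on Affymetrix Rat Gene 2.1 ST arrays. Of 36685 probe sets, 14824 carry exactly 1 gene symbol, and the brightest of them stood for each of 14557 genes. Signals of the 10 arrays ran from 2.89 to 12.82, with array medians between 4.36 and 4.57. Genes of the adrenal cortex and medulla were well above those medians in both groups, with Cyp11a1 at 11.8 ± 0.10 in control females and 11.7 ± 0.10 in OVX (SD, n = 5 each) and the chromaffin enzyme Th at 10.0 ± 0.19 and 10.0 ± 0.20. The arrays differed in the spread of their signals. The SD over all probe sets was 1.67 to 1.75 on 7 arrays but 1.49 to 1.56 on the other 3, which were control replicate 5 and OVX replicates 3 and 5 and are called narrow. The mean array SD was 1.669 in control females and 1.661 in OVX. Since whole glands were used, fewer cells of a type and less RNA per cell cannot be told apart. The labels call the arrays of a group biological replicates and name no batch of surgery or hybridization.

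After OVX, 11 genes were called higher and 0 lower. They included the stress cytokine Gdf15, the clock output gene Dbp, the triglyceride enzymes Dgat1 and Lpin1, the bile acid carrier Fabp6 and the co-chaperone Bag3, at 2.04 to 3.76 times the control signal. The threshold for a call was an adjusted p under 0.05 together with more than a 2 times difference, from limma on the 10 arrays with adjustment over all 14557 genes. The 11 genes are 0.0756% of the genes tested, and 516 genes had an unadjusted p under 0.05, of which 258 were higher and 258 lower. In all 11 the groups did not overlap, against 0.605% of all genes with every OVX value above every control value and 0.282% with every OVX value below. The 11 genes were chosen on these same values, so this separation describes the call and is no further support for it. The call without the fold limit gave the same count of 11, all higher. After quantile normalization it gave 156 genes, 116 higher and 40 lower.

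**Figure D1:**
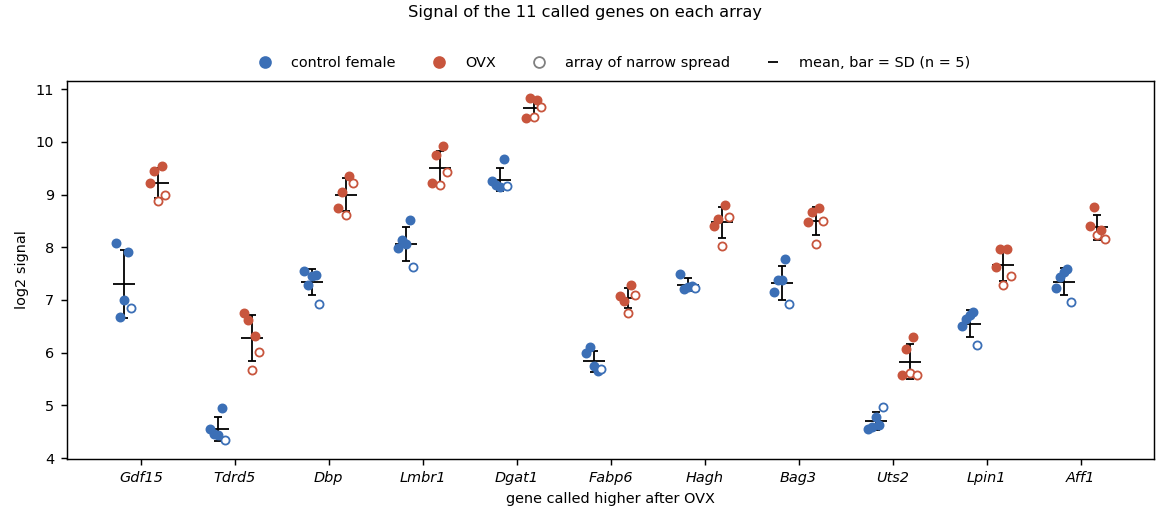
Log2 signal (vertical axis) of the 11 called genes (horizontal axis) on each of the 5 control female arrays and the 5 OVX arrays, with open circles for the 3 narrow arrays and bars for the mean and SD. In every gene the lowest OVX value lies above the highest control value, and in most genes the narrow control array is among the lowest controls.

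When array SD was entered in the fit beside the group, 38 genes were called, 34 higher and 4 lower, or 0.261% of the genes tested. All 11 genes above were among them. In those 11, at nearly the same mean array SD in both groups, the differences hardly moved and the standard errors became smaller. The signal of 8685 genes (59.7%) followed array SD at an adjusted p under 0.05, 6445 of them higher on wide arrays. By adjusted p alone, 205 genes were higher (1.41% of all tested) and 260 lower (1.79%). The control group holds only 1 narrow array, replicate 5, and without it 41 genes were called with array SD in the fit. What the narrow spread stands for was not tested.

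The count of calls depended on single arrays when array SD was left out, and far less when it was included. Without array SD, the count was 3 after leaving out control replicate 2, control replicate 3 or OVX replicate 2. It was 4 without OVX replicate 4, 5 without control replicate 1, 6 without OVX replicate 1 or 5, 12 without control replicate 4 or 5, and 13 without OVX replicate 3. With array SD in the fit, the count lay between 34 and 42 whichever array was left out. Dbp, Dgat1 and Fabp6 stayed called in each of the 10 fits without array SD, with adjusted p up to 0.0348, 0.0348 and 0.0445. The other 8 genes lost the call in some of those 10 fits, at an unchanged direction. It was lost in 3 for Hagh, 5 for Tdrd5, 6 for Gdf15 and Lmbr1, 7 for Bag3, 8 for Uts2 and Lpin1 and 9 for Aff1.

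**Figure D2:**
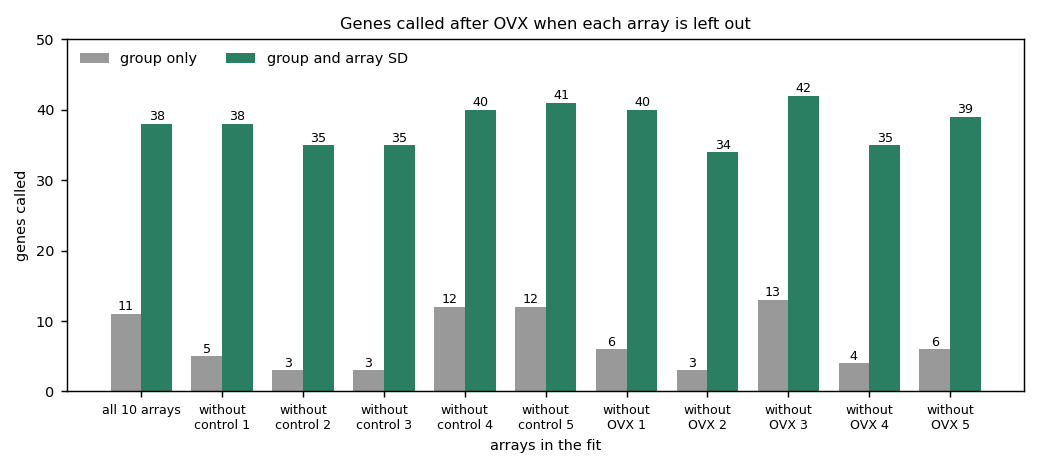
Number of genes called after OVX (bars, from 0) with all 10 arrays and with each array left out in turn, for the fit on group alone and for the fit on group and array SD. The first kind of fit gave 3 to 13 genes and the second 34 to 42.

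The named genes below were read in both fits. Where a single gene is said to lose its call with array SD in the fit, adjusted p under 0.05 alone is meant. Genes that differ by less than the fold limit are not among the 38. Values of single arrays are given in the order of replicates 1 to 5, so that the last control value and the third and the fifth OVX values come from narrow arrays. Differences are OVX minus control on the log2 scale, with their SE. List medians and counts of members above 0 are of the differences without array SD. To be set beside every list, 6006 of all 14557 genes were above 0 in that fit. With array SD in the fit, 1.41% of all genes rose and 1.79% fell.

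Of the genes of fat storage, Dgat1 and Lpin1 were called, and Dgat1 was the firmer. Dgat1 (Entrez Gene 84497) encodes the enzyme that joins the last fatty acid to a triglyceride. Its signal was 9.25, 9.19, 9.14, 9.67 and 9.15 in control females and 10.5, 10.8, 10.5, 10.8 and 10.7 in OVX. Control replicate 4 was the highest control, and all OVX values stood above it. The difference was 1.36 (SE 0.13, adjusted p = 0.00661 by limma) and 1.36 (SE 0.11, adjusted p = 4.5e-05) with array SD. Lpin1 (Entrez Gene 313977), whose product makes the diacylglycerol that Dgat1 uses, read 6.51, 6.64, 6.71, 6.76 and 6.14 in control females and 7.63, 7.96, 7.28, 7.97 and 7.45 in OVX. The narrow array of the controls was lowest and the groups stood apart by 1.11 (SE 0.17, adjusted p = 0.0471 by limma; 3.8e-05 with array SD). Without array SD, the Lpin1 call was lost in 8 of 10 fits without 1 array, with adjusted p up to 0.196 by limma. On the list of fatty acid and triglyceride synthesis these were the only 2 of 14 measured genes to pass in either fit, and the list median was 0.04, against -0.03 over all genes.

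Fabp6 (Entrez Gene 25440), the bile acid binding protein best known from the ileum, read 5.99, 6.10, 5.75, 5.64 and 5.68 in control females. In OVX it read 7.08, 6.97, 6.75, 7.27 and 7.09, with no overlap. The difference was 1.2 (SE 0.13, adjusted p = 0.00685 by limma). It was the 1 gene of 29 on the list of fatty acid oxidation and carriers that rose, while Decr1, an enzyme of unsaturated fatty acid oxidation, fell by 0.54 with array SD in the fit (adjusted p = 0.00731 by limma) and did not pass without it. The list median was -0.13.

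Ldah and Cidea, also tied to lipid droplets, belong to no list and are named because they were called with array SD in the fit. Other droplet genes on the lists did not pass, with Plin2, Plin1 and Cidec at -0.07, -0.11 and -0.09 in that fit (adjusted p = 0.839, 0.713 and 0.787 by limma). Ldah, a lipid droplet hydrolase, read 7.53, 7.87, 7.84, 8.24 and 7.12 in control females and 8.85, 9.09, 8.52, 9.45 and 9.02 in OVX. The groups did not overlap, and the difference was 1.29 (SE 0.15, adjusted p = 0.000444 by limma with array SD; 0.0859 without). Cidea, which fuses lipid droplets, read 8.86, 8.91, 8.97, 8.51 and 7.70 in control females and 9.98, 9.74, 9.18, 9.80 and 9.29 in OVX. Its wide and narrow arrays formed 2 levels within each group, and on both levels OVX was higher, by 1.04 in the fit with array SD (SE 0.10, adjusted p = 0.000112 by limma; 0.371 without).

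**Figure D3:**
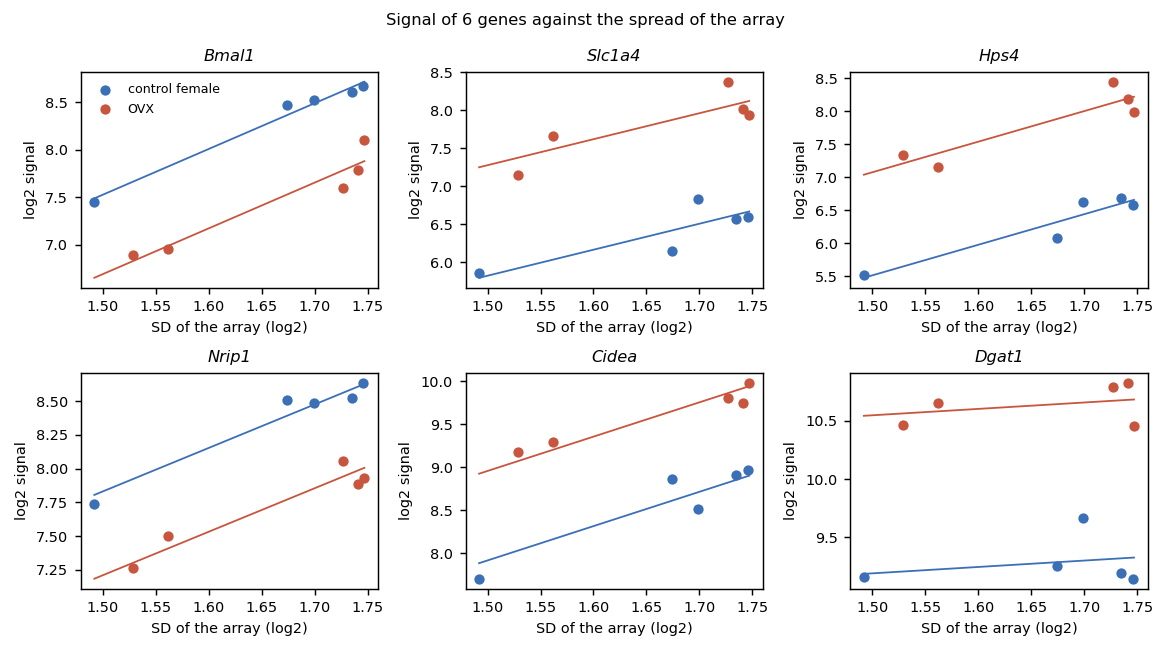
Log2 signal (vertical axes) against the SD of the array (horizontal axes) for 6 genes, with lines for the fit on group and array SD. In Bmal1, Slc1a4, Hps4, Nrip1 and Cidea the narrow arrays sit lower in both groups and the groups stand apart at a given spread, while Dgat1 hardly follows the spread.

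Of 14 measured genes of cholesterol synthesis, 0 passed without array SD and 2 rose with it. Idi1, which isomerizes the isoprenoid unit, read 7.01, 6.79, 7.01, 8.13 and 6.88 in control females and 8.68, 8.43, 7.50, 8.64 and 7.73 in OVX. Control replicate 4 lay far above the other controls and within the OVX range, so the groups overlapped. The difference was 1.06 (SE 0.23, adjusted p = 0.0208 by limma with array SD), and the adjusted p rose above 0.05, up to 0.0623, in 6 of the 10 fits without 1 array: control replicates 1, 2 and 3 and OVX replicates 1, 2 and 4. Nsdhl, a sterol dehydrogenase, differed by 0.45 (SE 0.08, adjusted p = 0.00668 by limma with array SD). In this list 11 of 14 genes were above 0, with a median of 0.17, whereas 6006 of all 14557 genes were above 0. Among 15 genes of cholesterol uptake, storage and export, Insig1 and Npc1 rose with array SD in the fit, and the list median was -0.05. Insig1, which retains the sterol sensor in the endoplasmic reticulum, read 8.08, 8.18, 8.35, 8.66 and 7.97 in control females and 9.53, 9.44, 8.68, 9.28 and 9.08 in OVX. Its groups touched closely without overlap, with a difference of 0.97 (SE 0.12, adjusted p = 0.00062 by limma with array SD; 0.131 without). Npc1, which moves cholesterol out of lysosomes, differed by 0.53 (adjusted p = 0.0128 by limma with array SD), and this was lost without control replicate 5 or OVX replicate 2, with adjusted p up to 0.0611.

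None of 13 measured genes of corticosteroid synthesis passed in either fit. Their differences ran from -0.31 to 0.27, with a median of -0.01. Cyp21a1 was at 11.7 ± 0.07 in control females and 11.7 ± 0.09 in OVX (SD, n = 5 each), and Cyp11b1, the last enzyme of corticosterone synthesis, at 11.4 ± 0.11 and 11.4 ± 0.12. The ACTH receptor gene Mc2r was at 9.66 ± 0.36 in control females and 9.46 ± 0.30 in OVX. In cyclic AMP signalling, 1 of 15 genes rose and 2 fell with array SD in the fit, and 0 passed without it. Sik1, a kinase induced by ACTH, rose by 0.68 (SE 0.13, adjusted p = 0.0118 by limma). Pde8b, a phosphodiesterase of the adrenal cortex, and the transcription factor Creb1 fell by 0.55 and by 0.53 (adjusted p = 0.0372 and 0.0267 by limma). The Pde8b call was lost in 8 of 10 fits without 1 array, all but those without control replicates 3 and 4, with adjusted p up to 0.117. The Creb1 call was lost in 7 of 10 fits without 1 array (control replicates 1, 2 and 4 and OVX replicates 1 to 4), with adjusted p up to 0.0813. On the list for angiotensin and aldosterone, 1 of 9 genes passed, Cacna1h, a calcium channel of aldosterone-producing cells, which fell by 0.37 with array SD in the fit (adjusted p = 0.0104 by limma). Star and Nr5a1 were not analysed here, since no probe set carries their symbol alone.

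The clock genes differed in both directions. Dbp (Entrez Gene 24309), a transcription factor that the clock drives, read 7.55, 7.28, 7.46, 7.47 and 6.92 in control females and 8.74, 9.05, 8.61, 9.36 and 9.22 in OVX. The lowest OVX value was above the highest control by a wide margin, at a difference of 1.66 (SE 0.17, adjusted p = 0.00661 by limma). Of 5 measured clock genes in phase with Dbp, Dbp and Per1 rose with array SD in the fit, Per1 by 0.57 (SE 0.10, adjusted p = 0.00591 by limma), and all 5 were above 0. Per3 was at 5.62 ± 0.23 in control females and 6.05 ± 0.21 in OVX (SD, n = 5 each). The Per1 call was lost without the 3 narrow arrays, at a difference of 0.62 and an adjusted p of 0.0733 by limma.

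Bmal1, the core activator of the clock, whose transcript peaks opposite to Dbp, read 8.47, 8.60, 8.66, 8.52 and 7.45 in control females and 8.10, 7.79, 6.89, 7.60 and 6.95 in OVX. Control replicate 5 lay inside the OVX range, while on wide arrays every control was above every OVX value. It fell by 0.84 with array SD in the fit (SE 0.09, adjusted p = 0.000187 by limma), and its adjusted p without array SD was 0.943. Cry1, a repressor of the clock, fell by 0.49 (SE 0.07, adjusted p = 0.00223) and Npas2, a partner of Bmal1, by 0.42 (SE 0.09, adjusted p = 0.0232), both by limma with array SD. The Npas2 call was lost in 4 of 10 fits without 1 array (control replicates 3 and 5, OVX replicates 2 and 3), with adjusted p up to 0.107, and without the 3 narrow arrays. Of the 5 genes of this phase, Clock and Nfil3 did not pass, at -0.16 and 0.20. The hour of death of each rat is not given beyond the common window, and its part in these differences was not tested.

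The promoter windows of these genes were searched to show which clock and estrogen elements they hold. RefSeq windows of the GRCr8 assembly (250 bases before to 50 after the transcript start) were found for 9 of the 10 measured clock genes and 10 of the 11 called genes. The letters TAGGTCA, read by the Rev-erb and ROR receptors, stood in 1 clock window, Bmal1, against 2.63% of all 33469 windows. The D-box letters TTATGTAA or TTACGTAA, the site that Dbp itself binds, stood in 1, Per2, against 1.01%. The E-box CACGTG, which Bmal1 and its partners bind, stood in 0 of the 9, against 6.42%. Both strands were searched in 1 window per gene, so other transcript starts of a gene were not read. The percentages are over all windows. The stretches are shown with the element in capitals.
Bmal1: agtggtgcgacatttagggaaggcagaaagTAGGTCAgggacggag
Per2: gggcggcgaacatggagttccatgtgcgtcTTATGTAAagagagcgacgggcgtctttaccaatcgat
The first is chr1:176766282-176766327 on the plus strand and the second chr9:99497148-99497215 on the minus strand. Among called genes, the E-box was found in 1 window, Lmbr1, and the D-box in 0. A palindromic estrogen response element, GGTCA and TGACC with 3 bases between, was found in 0 of the 10 windows, against 0.0269% of all. A match is only a description of the letters, and a missing match does not speak for sites outside the window.

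Genes of stress were read as a further group. Gdf15 (Entrez Gene 29455), a secreted cytokine of stressed cells, read 8.07, 6.68, 7.0, 7.91 and 6.85 in control females and 9.22, 9.45, 8.88, 9.54 and 8.98 in OVX. Controls spread widely, with replicates 1 and 4 above the other 3, but stayed under all OVX values. The difference was 1.91 (SE 0.28, adjusted p = 0.0421 by limma), a fold of 3.76. Without array SD, the Gdf15 call was lost in 6 of 10 fits without 1 array, with adjusted p up to 0.185 by limma. Of 16 measured genes of the integrated stress response, which is the program of ATF4, Gdf15 passed without array SD and 4 passed with it, all higher. On this list 13 were above 0 with a median of 0.22, while 6006 of all 14557 genes were above 0 and 1.41% rose with array SD. The other 12 did not pass with array SD in the fit. Among them Atf4 was at 0.34 (adjusted p = 0.0546 by limma), and Ddit3, Trib3, Chac1 and Ddit4 were at 0.19, 0.20, -0.001 and -0.47. Slc1a4, a carrier of neutral amino acids, read 6.15, 6.58, 6.59, 6.83 and 5.87 in control females and 7.94, 8.02, 7.14, 8.38 and 7.67 in OVX. The groups did not overlap, and the difference was 1.45 (SE 0.13, adjusted p = 6.8e-05 by limma with array SD; 0.0799 without). Slc7a5, which carries large neutral amino acids, differed by 0.92 (adjusted p = 0.0428 by limma with array SD), and its call was lost in 7 of 10 fits without 1 array, all but those without control replicates 1 and 4 and OVX replicate 3, with adjusted p up to 0.111. Shmt2, a mitochondrial enzyme of serine metabolism, rose by 0.39 (adjusted p = 0.0269 by limma with array SD), and was lost without control replicate 2, 3 or 5 or OVX replicate 1 or 2, with adjusted p up to 0.084.

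Bag3 (Entrez Gene 293524), a partner of Hsp70, read 7.15, 7.38, 7.38, 7.77 and 6.92 in control females and 8.48, 8.68, 8.06, 8.74 and 8.50 in OVX. The groups stood apart, with the narrow OVX replicate 3 lowest in its group, by 1.17 (SE 0.17, adjusted p = 0.0444 by limma). Without array SD, the Bag3 call was lost in 7 of 10 fits without 1 array, with adjusted p up to 0.196 by limma. Of 11 measured heat shock and cold-inducible genes, 10 were above 0, with a median of 0.19, against 6006 of all 14557 genes. With array SD in the fit 4 of the 11 rose, against 1.41% of all genes. Hspa1b, an inducible Hsp70, was dim in both groups, at 4.66, 4.29, 4.42, 4.37 and 4.23 in control females and 4.93, 5.30, 5.11, 4.93 and 5.17 in OVX. Since 3 control values were below their array medians, its rise is at least 0.59 (adjusted p = 0.00212 by limma with array SD; 0.0696 without). Hspa1b has a near-identical copy, Hspa1a, whose RNA its probes may also read, so it is uncertain which copy was measured. Dnajb1 and Hsph1, partners of Hsp70, rose by 0.47 and 0.45 with array SD in the fit (adjusted p = 0.0349 and 0.0496 by limma). Both sat at the threshold and were lost in 7 and 8 of 10 fits without 1 array, with adjusted p up to 0.126 and 0.177. Dnajb1 kept its call only without control replicate 1 or 4 or OVX replicate 3, and Hsph1 only without control replicate 1 or 4. Hsph1 was chosen after its values were seen.

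The heat shock element was searched after these values were seen. The letters GAANNTTC stood in 6 of the 10 windows found for the 11 heat shock genes (Bag3, Dnaja1, Hspe1, Hsph1, Hspb1 and Dnajb1), against 8.59% of all windows. Of these 6 genes, Bag3, Dnajb1 and Hsph1 rose with array SD in the fit, while Dnaja1, Hspe1 and Hspb1 did not pass. Hspa1b, which also rose, was not among the 6. The stretches of Bag3, Dnajb1 and Hsph1 are shown with the element in capitals.
Bag3: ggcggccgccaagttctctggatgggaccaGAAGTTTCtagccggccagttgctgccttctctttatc
Dnajb1: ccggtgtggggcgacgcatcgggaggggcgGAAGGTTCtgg
Hsph1: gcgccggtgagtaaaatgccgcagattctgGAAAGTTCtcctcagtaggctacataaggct
They lie at chr1:192533298-192533365 (plus), chr19:41431142-41431182 (minus) and chr12:10427307-10427367 (plus) of GRCr8. Among the 10 windows of called genes, Bag3 alone held the letters.

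Immediate early genes, which answer a stimulus within minutes, split. With array SD in the fit, 4 of 21 measured genes rose, 2 fell and 15 did not pass, and without it 0 passed. Of all genes, 1.41% rose and 1.79% fell with array SD in the fit. Fosb read 5.24, 5.69, 6.21, 6.22 and 5.46 in control females and 7.26, 7.29, 6.45, 7.48 and 6.47 in OVX. The groups did not overlap, and Fosb rose by 1.26 (SE 0.16, adjusted p = 0.000912 by limma with array SD). Fos, of the same family, read 7.87, 8.31, 8.24, 7.84 and 6.72 in control females and 7.61, 7.33, 6.38, 6.50 and 5.45 in OVX. Its groups overlapped, and it fell by 1.09 (SE 0.20, adjusted p = 0.009 by limma with array SD). The orphan nuclear receptors Nr4a2 and Nr4a1, both induced by ACTH, rose by 0.88 and 0.39, and Klf4 by 0.91, with adjusted p of 0.00147, 0.0213 and 0.00443 by limma with array SD. Zfp36, which destabilizes cytokine transcripts, fell by 0.59 (adjusted p = 0.0213 by limma with array SD). Nr4a1 and Zfp36 were chosen after their values were seen. The Nr4a1 call was lost without OVX replicate 1 or 2 and the Zfp36 call without control replicate 2, 3 or 5 or OVX replicate 2 or 4, with adjusted p up to 0.0813 and 0.0649. Without the 3 narrow arrays the Klf4, Nr4a1 and Sik1 calls were lost as well, with adjusted p of 0.083, 0.139 and 0.15 by limma.

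**Figure D4:**
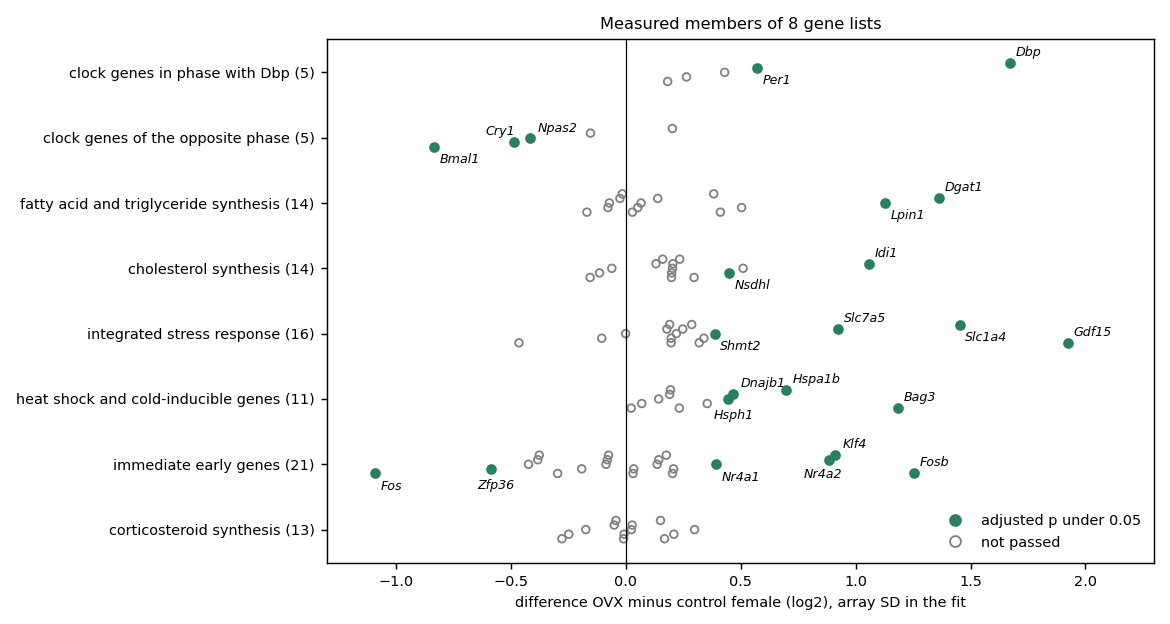
Difference OVX minus control female on the log2 scale with array SD in the fit (horizontal axis) for each measured member of 8 gene lists, with the number measured in brackets, filled where the adjusted p was under 0.05. All 5 clock genes in phase with Dbp lie above 0 and 4 of the 5 of the opposite phase below it (Nfil3 lies above), immediate early genes lie on both sides, and genes of corticosteroid synthesis stay between -0.28 and 0.30.

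Of the other called genes, Tdrd5 (Entrez Gene 289129), a protein of the piRNA pathway in mouse germ cells, was dim in control females, at 4.56, 4.45, 4.44, 4.94 and 4.35. It reached 6.75, 6.62, 5.67, 6.31 and 6.01 in OVX, every one above the controls. The difference was 1.73 (SE 0.20, adjusted p = 0.0109 by limma). Hagh (Entrez Gene 24439), the second enzyme of the glyoxalase pathway, read 7.50, 7.21, 7.25, 7.27 and 7.22 in control females and 8.40, 8.53, 8.03, 8.81 and 8.57 in OVX. The controls lay within a narrow range under all OVX values, and the difference was 1.18 (SE 0.14, adjusted p = 0.0109 by limma). Uts2 (Entrez Gene 29180), the vasoactive peptide urotensin II, read 4.54, 4.59, 4.78, 4.63 and 4.97 in control females and 5.58, 6.08, 5.62, 6.30 and 5.58 in OVX. All OVX values were higher, by 1.13 in the mean (SE 0.16, adjusted p = 0.0421 by limma). Lmbr1 (Entrez Gene 362295), a membrane protein gene whose intron holds the limb enhancer of Shh in mouse, read 7.98, 8.14, 8.06, 8.52 and 7.63 in control females and 9.23, 9.75, 9.18, 9.93 and 9.44 in OVX. The groups did not overlap, with a difference of 1.44 (SE 0.19, adjusted p = 0.0249 by limma). Aff1 (Entrez Gene 305152), a scaffold of the super elongation complex, was the smallest of the 11 at 1.03 (SE 0.15, adjusted p = 0.0421 by limma). It ran from 6.97 to 7.58 in control females and from 8.15 to 8.76 in OVX. Without array SD, the Tdrd5, Hagh, Uts2, Lmbr1 and Aff1 calls were lost in some fits without 1 array. Their adjusted p reached 0.0629, 0.0629, 0.188, 0.121 and 0.188 by limma.

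The 27 genes called only with array SD included Vom2r53, which was not above the array median in any control. Vom2r53, of the large vomeronasal receptor family, read 3.70, 3.71, 3.91, 4.32 and 3.72 in control females and 5.51, 7.60, 6.85, 5.92 and 4.82 in OVX. Its rise is at least 1.69 (adjusted p = 0.00568 by limma with array SD; 0.135 without), and its probes may read related copies. Hps4, a subunit of the complex that builds lysosome-related organelles, read 6.08, 6.68, 6.58, 6.63 and 5.52 in control females and 7.98, 8.19, 7.33, 8.45 and 7.16 in OVX. It stood apart and rose by 1.56 (SE 0.12, adjusted p = 3.8e-05 by limma with array SD). The heme scavenger Hpx rose by 1.66 (adjusted p = 0.00168), Giot1, a zinc finger gene first described as gonadotropin-inducible in the rat ovary, by 1.43 (adjusted p = 0.00261) and Ndrg1 by 1.27 (adjusted p = 0.000871), all by limma with array SD and without overlap. The Ndrg1 call was lost without the 3 narrow arrays, at an adjusted p of 0.0529 by limma. Prcp, a peptidase that cleaves angiotensin II, rose by 1.25 (adjusted p = 0.000848 by limma with array SD), with OVX replicate 3 inside the control range. Others that rose were Adamts9, a matrix protease, by 1.18, Hoxb9 by 1.06 and the complex I subunit Ndufa5 by 1.01, with adjusted p of 0.000746, 0.000112 and 0.000444 by limma with array SD. Of the 38 genes, 29 had groups that did not overlap. Over all genes, 0.605% had every OVX value above every control value and 0.282% every OVX value below. The 38 genes were chosen on these same values, so their separation is no further support for the calls. Idi1, Fos, Medag, Prcp, Cilp2, Lig4, Cgrrf1, Vps37b and Fmo1 overlapped.

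The 4 genes that fell past the fold limit were Medag, Cilp2, Lig4 and Fos. Medag, named for estrogen-dependent fat cell formation in mesentery, read 8.11, 8.32, 8.22, 7.71 and 6.78 in control females and 7.12, 6.64, 6.29, 6.24 and 5.85 in OVX. Only the narrow control replicate 5 reached into the OVX range. Medag fell by 1.37 (SE 0.17, adjusted p = 0.000746 by limma with array SD; 0.224 without). Cilp2, a matrix protein of cartilage, read 6.60, 7.07, 7.06, 7.04 and 5.93 in control females and 6.10, 5.50, 4.98, 5.71 and 5.34 in OVX, with the same array reaching in. It fell by 1.18 (SE 0.11, adjusted p = 0.000112 by limma with array SD). When control replicate 5 was left out of the fit without array SD, Medag and Cilp2 passed, with adjusted p of 0.0286 and 0.0386 by limma. Lig4, the ligase of DNA end joining, fell by 1.13 (adjusted p = 0.0218 by limma with array SD), and was lost in 6 of 10 fits without 1 array (control replicates 2, 3 and 4, OVX replicates 1, 2 and 3), with adjusted p up to 0.0804. Fmo1, a monooxygenase, rose by 1.01 and lost its call, with adjusted p up to 0.0723, without control replicate 1 or 5 or OVX replicate 4.

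Of 14 measured genes of a list of estrogen response genes known from other tissues, 0 rose and 1 fell with array SD in the fit, a count too low to set apart from the 1.41% and 1.79% of all genes that did so. That gene was Nrip1, a nuclear receptor corepressor that estrogen induces in other cells. It read 8.50, 8.52, 8.64, 8.48 and 7.74 in control females and 7.93, 7.89, 7.26, 8.06 and 7.50 in OVX, where again control replicate 5 alone reached into the other group. Nrip1 fell by 0.62 (SE 0.08, adjusted p = 0.000829 by limma with array SD; 0.819 without). None of 9 measured receptors for sex steroids, gonadotropins and related hormones passed in either fit. Esrra was at 4.33 ± 0.27 in control females and 4.33 ± 0.18 in OVX, and Esr2 at 3.96 ± 0.12 and 3.90 ± 0.12 (SD, n = 5 each), below the array medians. By QPCR, the paper reports higher Esrra and higher Hcrtr2 after OVX. On the arrays Hcrtr2 was at 5.96 ± 0.54 in control females and 6.23 ± 0.75 in OVX. An array signal as dim as that of Esrra may miss a change that QPCR reads. Esr1 was not analysed here for the same reason as Star. Among 11 gonadal-type genes, Inha, the inhibin alpha subunit, read 6.02, 6.58, 6.67, 6.29 and 6.20 in control females and 7.07, 7.34, 6.88, 7.21 and 6.93 in OVX, without overlap. It rose by 0.75 (SE 0.11, adjusted p = 0.00171 by limma with array SD; 0.14 without), and the other 10 did not pass. Of 11 measured steroid reducing and conjugating enzymes, Sts, the steroid sulfatase, rose by 0.35 (adjusted p = 0.0213 by limma with array SD). The Sts call was lost in 7 of 10 fits without 1 array, with adjusted p up to 0.07. Those arrays were control replicates 1, 2, 3 and 5 and OVX replicates 1, 2 and 3. The reductase genes Srd5a1 and Srd5a2 were not analysed here, for the same reason as Star. The paper reports higher Srd5a1 after OVX on its arrays, which could not be checked here.

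Few or no genes of the remaining lists passed. In either fit, 0 of 18 cell cycle genes and 0 of 18 TNF and NF-kB targets passed, with list medians of -0.10 and 0.03 without array SD. Of 22 genes of oxidative phosphorylation, Ndufa5 rose with array SD in the fit and the other 21 did not pass, at a list median of -0.03 without array SD and -0.01 with it. On the interferon and antigen list 1 of 12 passed, Ifi47, which fell by 0.48 (adjusted p = 0.0109 by limma with array SD). With array SD in the fit, Per1 and the metallothionein Mt2A rose in the glucocorticoid response list, 2 of 11, at a median of -0.14, and Adamts9 rose and Lamb1 fell in the extracellular matrix list, 2 of 18. The Mt2A call was lost without control replicate 2 or 5 or OVX replicate 2 and the Lamb1 call without control replicate 3 or 5 or OVX replicate 2, with adjusted p up to 0.0868 and 0.0833 by limma. Of the markers for cell types, only Cd4 of 7 T cell markers passed, at 0.42 (adjusted p = 0.0232 by limma with array SD), and it was lost without control replicate 1, 2 or 5, with adjusted p up to 0.0815. None of 7 glomerulosa, 6 fasciculata, 8 chromaffin, 9 capsule, 8 endothelial, 9 macrophage, 8 adipocyte, 3 smooth muscle, 3 glial, 3 red cell and 5 kidney or liver markers passed. Chromaffin markers had a median of -0.12 with 1 of 8 above 0, and macrophage markers a median of 0.11 with 7 of 9 above 0. The part of cell makeup in the results was not tested beyond these markers.

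The same 11 genes were read in the other groups. In ORX against control males, which share no array with the female comparison, 8 of the 11 were higher, while 49.6% of all genes were higher in ORX. Dbp alone of the 11 passed there, at 1.38 (SE 0.17, adjusted p = 0.000138 by limma on 30 arrays). Gdf15 and Lmbr1 differed by -0.03 and 0.01, and Bag3 by -0.40, between ORX and control males, none of which passed. The difference between the female and the male response was tested for every gene, and 1 gene of 14557 (0.00687%) passed, Hspa1b. Its signal was 4.39 ± 0.16 in control females, 5.09 ± 0.16 in OVX, 4.59 ± 0.23 in control males and 4.38 ± 0.13 in ORX (SD, n = 5 each), and the measured female minus male response was 0.91 (adjusted p = 0.0206 by limma on 30 arrays). Since the values of control females, control males and ORX are near the array medians, its size is not exact. At an unadjusted p under 0.05, 311 genes differed. With array SD in that fit 93 genes passed, Hspa1b among them, and without it the call was lost in 9 fits that left out 1 array. Those arrays were control female replicates 2, 4 and 5, OVX replicates 2, 3 and 5, control male replicates 1 and 5 and ORX replicate 3.

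**Figure D5:**
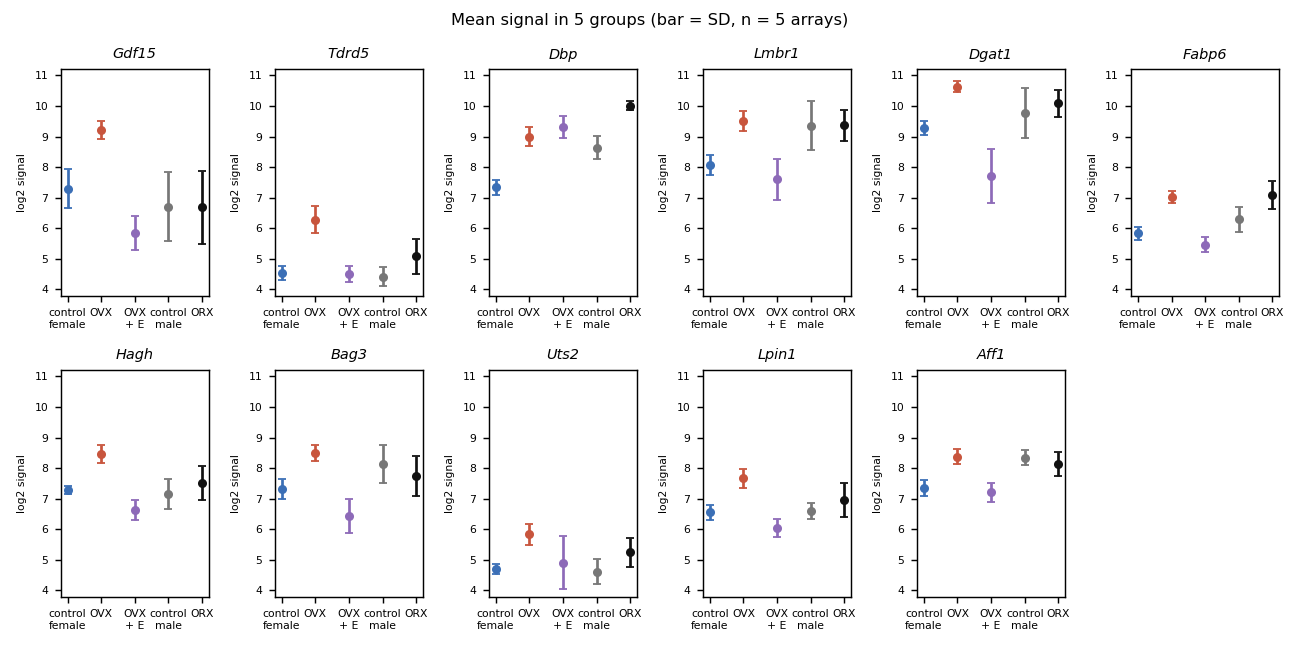
Mean log2 signal (vertical axis) with SD (n = 5 arrays) of the 11 genes called after OVX in control females, OVX, OVX + E, control males and ORX. OVX + E lies under OVX in 10 of the 11 panels, with Dbp the exception at 9.32 in OVX + E and 9.0 in OVX.

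OVX + E is set beside OVX and control females as values only, since the comparisons share arrays. Dgat1 was at 7.71 ± 0.87 in OVX + E, Gdf15 at 5.84 ± 0.55, Bag3 at 6.44 ± 0.56 and Hagh at 6.64 ± 0.33 (SD, n = 5 each), which is under the mean of control females in each case. Tdrd5 was at 4.51 ± 0.27 in OVX + E and 4.55 ± 0.23 in control females. Uts2 was at 4.91 ± 0.86 in OVX + E, with a wide spread, and Dbp stayed at 9.32 ± 0.36.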

How the data were processed

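Whole adrenal RNA of 30 rats was measured on 1 array each. The authors corrected, normalized and summarized the probe signals by RMA in the affy package, and the deposited values are log2 signals; which arrays were normalized together is not given in the sources used here, and the genome build of the probes is not either. No value was rescaled. RNA integrity numbers were 8.5 to 10 per the labels. The 10 arrays of control females and OVX were fitted with limma 3.58.1 in R 4.3.3 (8 residual and 2.98 prior degrees of freedom), with Benjamini-Hochberg adjustment over 14557 genes and the thresholds of the study (fold above 2, adjusted p under 0.05). A second fit added the SD of each array (7 residual and 6.46 prior). Comparisons with males used all 30 arrays and 1 mean per group. Within lists, adjusted p alone decided whether a member rose or fell. On simulated data of the OVX comparison (14557 genes), 88 of 100 genes with a log2 change of 1.5 and 98 of 100 with 2.5 were recovered, with 1 false call. With array SD in the fit 85 and 99 were recovered, with 1 false call. The simulated noise was independent between genes and held no effect of array spread, so it cannot show how the fits handle that spread. Most of the 11 called differences were smaller than 1.5, and recovery at their size was not simulated. The number of arrays limits the precision.

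Probe sets with several symbols (829) or none (21032) were left out; 234 genes had more than 1 probe set. Genes named by rule were every called gene, up to 12 genes past the adjusted p under the fold limit, up to 4 members of each list by p, and a few receptors and enzymes. Genes called only with array SD that no part of this rule names were chosen after their values were seen, as were Nr4a1, Zfp36, Hsph1, Shmt2, Mt2A and Lamb1. The members and lists were chosen with earlier results of these data known. Where 3 or more of the 5 values in the dimmer group were below the array median, they were set to it and the rise is given as at least. Replicate numbers were not used to pair rats in the main fit. Sequences are from RefSeq, GRCr8.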

Additional observations from a re-analysis of the deposited data

Results flagged for a closer look

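A sample far from the 4 others of its group was looked for in 136 groups of values with Dixon's ratio, which flags about 1 in 20 groups by chance, and 12 were found. Control female replicate 4 was highest for Dgat1 (9.67, next 9.25) and for Idi1 (8.13, next 7.01). Control female replicate 1 was highest for Hagh (7.50, next 7.27), and OVX replicate 4 for Rpl35l2 (7.15, next 6.63). Control female replicate 5, the narrow control array, was lowest for Bmal1 (7.45, next 8.47), Npc1 (7.50, next 8.23), Nsdhl (5.70, next 6.54), Nrip1 (7.74, next 8.48), Shmt2 (5.88, next 6.84), Decr1 (7.14, next 7.86), Cacna1h (7.29, next 8.04) and Mt2A (4.35, next 6.37). The part of array spread in these 8 was not tested beyond the fit with array SD.

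Hspa1b differed between the sexes in its response to gonadectomy, by 0.91 on the log2 scale (adjusted p = 0.0206 by limma on 30 arrays). The values lie near the array medians in control females, control males and ORX, so this size is not exact, and the call was lost in 9 fits that left out 1 array. OVX was above control females in 5 of 5 values, while the mean of ORX was under that of control males.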

How the results depend on the processing

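No direction reversed among 68 genes under 25 alternatives, and of 275 values of the 11 called genes, 84 lost the call. Against 11 calls in the main comparison, 38 genes were called with array SD, 37 with array SD on all 30 arrays, 48 without narrow arrays, 48 with array weights, 17 among the 60% of genes with the highest mean, 5 after median centring, 34 after quantile normalization and 4 in a test against a fold of 1.2. Without the fold limit, these settings gave 465, 537, 214, 496, 17, 5, 156 and 4 genes, and all 30 arrays without array SD gave 24. With the fold limit all 30 arrays gave 16 genes, of which 6 were among the 11. With each array left out in turn, counts were 3 to 13 with and 3 to 15 without the fold limit. Dbp, Tdrd5 and Fabp6 kept the call under all 15 other settings, and Dgat1 lost it with all 30 arrays and with the 15 female arrays (adjusted p = 0.0976 and 0.198 by limma). Deviations of arrays with the same replicate number correlated from -0.671 to 0.654, above 0.1 in 4 of 5, and 5 of 10 arrays correlated best with their own number. The value of -0.671 was of number 3, with a wide control and a narrow OVX array, and number 5, with both arrays narrow, gave 0.632. Pairing was not separated from array spread here, so whether the numbers pair rats was not settled. With the replicate block, 21 genes were called (20 higher, 1 lower), or 24 without the fold limit, and with the replicate block and array SD 38 and 503. For array SD in the fit, alternatives chosen after seeing the data gave 34 to 42 genes without 1 array, 37 on all 30 arrays, 39 after quantile normalization, 38 with the block and 55 without narrow arrays. Of 67 genes tried that passed the adjusted p in that fit, 50 kept it whichever 1 array was left out, and 18 lost it without the 3 narrow arrays. The difference between the sexes gave 93 genes with array SD (38 higher, 55 lower in females), 17 without narrow arrays, 2 with the replicate block and 0 to 1 without 1 array. Except where construction shows it (fewer genes tested, fewer arrays), the cause was not tested. Signal near the array median limits what dim genes such as Hspa1b, Vom2r53 and Iqub can show.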
